A study of Mus musculus with 6 samples.

Results

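The genes described here are the modest rises of the mouse hippocampus after middle cerebral artery occlusion: those whose mean was higher in ischemia than in sham by less than 2-fold. They were chosen by the ratio of the means in the authors' deposited table of called genes, which had to lie above 1 and below 2, and a gene symbol was required. Some families and genes were left out by name, namely symbols starting with Zfp, Hsp, Dnaj or Slc and Ermn, Cldn11, Cnp, Fcrls, Ly86, Atf4, P4ha1, Rora and Neat1. This left 160 of the 637 genes in the table. Of those 637 genes 415 were higher and 222 lower in ischemia, and of the higher ones 192 were higher by less than 2-fold, 177 of these with a symbol. The authors' calls were 2.25% of the 28319 genes that they appear to have tested, the higher calls 1.47% and the higher calls of less than 2-fold 0.678%. Because the ratio chose the genes, their folds and p-values are given as a description, and nothing is read from these shares about them.

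RNA from the hippocampus of wild type C57BL/6 mice aged 56 days was sequenced in 2 groups of 3 samples, both titled 2 h. One group underwent focal occlusion of the middle cerebral artery, which models a stroke of the forebrain, and the other a sham operation without it. The titles leave it unsaid if 2 h means how long the artery was blocked or when tissue was taken, and separate animals are not stated, so p-values refer to a spread between samples that may be technical. The column of M2 means was taken as ischemia and that of S2 means as sham, by the first letters of MCAO and sham, and all directions depend on this. The hippocampus label could not be checked, because a called difference between the groups does not show which tissue was sampled. Of the markers, 2 of 13 for dentate granule cells and 1 of 13 for pyramidal cells were called, all lower in ischemia. For neocortex, striatum and thalamus 2 of 16 were called, both higher. Values of uncalled markers were not analysed here.

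When blood flow fails, neurons and glia start within minutes to transcribe immediate early genes, many of them under the control of CREB, which binds the cAMP response element, and of serum response factor, which binds the CArG box. Later waves include regulators of transcription, of protein and RNA handling, and of cell death and survival. A small relative change in an abundant mRNA can move more molecules than a large one in a scarce mRNA.

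The modest rises were of moderate to high abundance. Means, folds and adjusted p-values are those of the authors' deposited table unless a value is said to be computed per library, and the table gives no standard deviation. Their median fold was 1.58 (1.35 to 2.00), and their median sham mean was 1551 normalised reads, with the lowest at 116 for Nfkbid. The 223 rises of 2-fold or more had a median fold of 3.53 and a median sham mean of 455 normalised reads, and the 222 falls a median ratio of 0.625 and a median sham mean of 994. No modest rise had a sham mean under 100 normalised reads, where 66 of the larger rises and 12 of the falls lay. Between 100 and 1000 reads there were 56 modest rises (35.0%), between 1000 and 10000 there were 94 (58.8%), and above 10000 there were 10 (6.25%), against 86, 69 and 2 of the larger rises. The table lists only genes with an adjusted p under 0.05, which a scarce gene with a fold under 2 is less likely to reach. These levels are therefore set in part by the choice of genes and are not read as a trait of them.

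**Figure D1:**
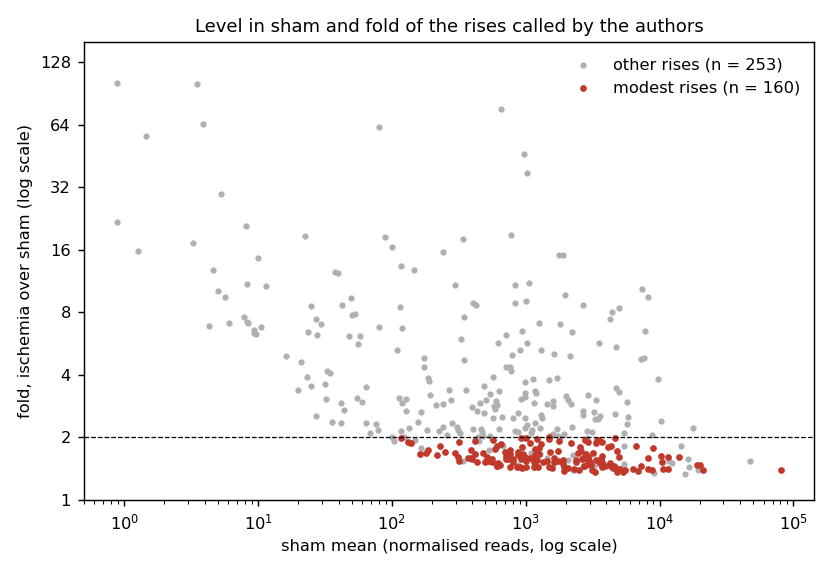
The sham mean in normalised reads (log axis) is plotted against the fold of ischemia over sham (log axis), with 1 point for each gene of the deposited table that rose, except 2 listed at 0 in sham. The modest rises lie between 1.35-fold and 2.00-fold and start at a sham mean of 116 normalised reads, while 66 larger rises lie under 100.

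Within the 160 genes the lowest fold differed between bands of abundance, and the limit on adjusted p has a part in this. Between 100 and 1000 normalised reads in sham the smallest was 1.42-fold, for Mvk, and between 1000 and 10000 it was 1.35-fold, for Rap2a. Above 10000 the smallest was 1.39-fold, and the largest fold among the 10 genes there was 1.62, for Tpt1. These are not the lowest folds called in the table, since Cldn11 (1.348-fold at a sham mean of 9156) and Cnp (1.335-fold at 15526) were left out by name. The median folds of the 160 genes in these 3 bands were 1.63, 1.55 and 1.47. Above 10000 the genes left out by name also include Hsph1 at 1.81-fold, more than Tpt1. Dnaja1 (1.58), Hspa4 (1.54), Hsp90aa1 (1.53), Hspa5 (1.51) and Slc25a3 (1.44) lie there too. The largest fold of 1.62 and the median of 1.47 thus depend on the choice of genes. At the upper limit the values ran without a gap: Fbl had a ratio of 1.999, Hsd17b7 1.991, Nfkbid 1.977, Mafk 1.974, Eprs 1.973 and Ing2 1.966 just inside, and Usp36 2.005, Pdk4 2.007, Sat1 2.019, Dusp16 2.023 and Mapk6 2.027 just outside. The smallest ratios were those of Rap2a at 1.354, Crebzf at 1.366, Edil3 at 1.367, Kpna1 at 1.374, Eif2s2 at 1.379 and Clcn3 at 1.384, and the falls nearest to 1 were Pcdh1 at 0.739, Slc7a14 at 0.738 and Ptprj at 0.734.

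In reads rather than ratios, the 160 genes gained 281409 normalised reads from sham to ischemia, 19.4% of the gain of all 415 rises, against 73.2% for the rises of 2-fold or more. Rab6a, a GTPase of Golgi traffic, gained 9381 and ranked 32 among all rises in reads gained, with a fold of 1.47, Tsc22d1, a leucine zipper regulator of transcription, gained 8840, and the neurofilament gene Nefl gained 8378. Divided by exon length, high sham levels were those of Basp1 at 10543 normalised reads per kb, Cox7c at 7201 and Nap1l5 at 6260, and the level was lowest for Ncapg2 at 23.0, C330027C09Rik at 24.3 and Nfkb2 at 28.7.

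Transcription factors and cofactors formed a group of 22 genes, with a median fold of 1.68. Srf, serum response factor itself, rose 1.94-fold in the authors' deposited table, from 3396 to 6599 normalised reads (adjusted p = 2.13e-09). In the authors' deposited table Tceal8, a small relative of an elongation factor, rose 1.91-fold to 3394 from a sham mean of 1775 (adjusted p = 2.99e-08). Mafk and Bach1, which pair to bind antioxidant response sites, rose 1.97-fold and 1.82-fold, to 1827 and 1119 normalised reads. Cited2, a cofactor that competes with HIF1A for its coactivators, rose 1.72-fold from 1754 to 3013, and Irf2bp2, a corepressor, 1.78-fold from 1256 to 2231. Aff1, of the transcription elongation machinery, rose 1.96-fold to 2929, and Stat3, which carries cytokine signals to the nucleus, 1.58-fold to 4222. Med7 and Taf13, subunits of Mediator and of TFIID, rose 1.68-fold and 1.63-fold. Genes of NF-kappaB signalling in the group were scarce: Nfkb2 rose 1.91-fold from 131 to 250 normalised reads, and Nfkbid, a nuclear inhibitor protein of that family, 1.98-fold from 116 to 230. Crebzf, a leucine zipper protein, had the smallest fold of the group at 1.37.

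Promoters of these genes were searched for 6 motifs on both strands, in the 250 bases before each start site given by RefSeq on GRCm38.p6. The table held 127 of the 160 genes, with 168 windows. The full cAMP response element TGACGTCA was found in 11 windows (6.55%), against 8.60% of the windows of larger rises, 0.518% of those of falls and 1.55% of all 32851 windows. The shorter core TGACG, which the full element contains, was found in 43.5%, against 45.7%, 21.2% and 17.8%. The E-box CACGTG was found in 10.7% (12.4%, 5.70% and 6.02% in the same order), and the CArG box in 4 windows or 2.38% (3.76%, 0.518% and 1.47%). Some genes have several windows. Counted by gene, the CArG box was found in 4 of 127 here, 4 of 143 larger rises, 1 of 154 falls and 439 of 27025 over all. AP-1 sites, TGANTCA, were found in 4.76% of the windows, against 6.75% of all windows, and the heat shock element GAANNTTC in 4.17%, against 6.69%. The windows differed in composition: the median GC content was 63.4% here, 60.8% for falls and 52.4% over all, and the median number of CpG 19.5, 15 and 6. Among windows with at least 10 CpG, the full element was found in 11 of 139 here (7.91%), in 10.7% of those of larger rises, in 0 of 141 of those of falls and in 3.08% of all 12417. In these CpG-rich windows the AP-1 site was found in 4.32% here and 3.02% of all, the reverse of the order over all windows, and the heat shock element in 4.32% and 4.30%. The core TGACG was found in 46.0% here and 30.1% of all, the E-box in 12.2% and 9.37%, and the CArG box in 2.16% and 1.02%. These shares are descriptions of letters in windows and not of binding.

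**Figure D2:**
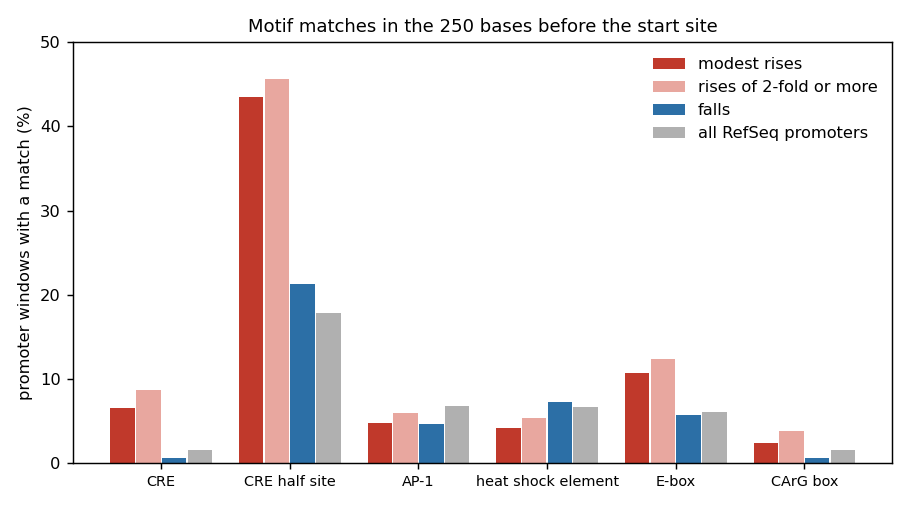
The share of promoter windows with at least 1 match (percent) is drawn for 6 motifs and 4 sets of windows: the modest rises, the rises of 2-fold or more, the falls and all promoters of the RefSeq table. The full cAMP response element stands at 6.55% of the 168 windows of modest rises and 1.55% of all windows.

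The 4 promoters below carry the full cAMP response element, in capitals, and are shown because they place it in a nuclear inhibitor of NF-kappaB, a gene whose window holds it at 2 places, a stress phosphatase and a zinc finger regulator. They are written 5′ to 3′ on the strand of the gene, in GRCm38.p6, and end just before the start site: Nfkbid at chr7:30422156-30422405 (plus strand), Heca at chr10:17948068-17948317 (minus), Ppm1d at chr11:85311004-85311253 (plus) and Zbtb11 at chr16:55973554-55973803 (plus). Zbtb11 was picked for display after its values were seen.
Nfkbid: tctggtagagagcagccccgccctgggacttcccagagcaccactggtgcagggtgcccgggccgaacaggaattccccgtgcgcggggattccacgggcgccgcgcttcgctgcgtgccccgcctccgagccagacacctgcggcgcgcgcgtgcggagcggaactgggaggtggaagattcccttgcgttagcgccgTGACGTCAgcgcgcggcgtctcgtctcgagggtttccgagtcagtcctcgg
Heca: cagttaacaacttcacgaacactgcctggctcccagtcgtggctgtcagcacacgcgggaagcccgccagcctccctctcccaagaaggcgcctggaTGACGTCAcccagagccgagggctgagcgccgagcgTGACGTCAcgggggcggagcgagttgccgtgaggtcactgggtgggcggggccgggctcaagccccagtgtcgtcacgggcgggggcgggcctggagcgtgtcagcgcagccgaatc
Ppm1d: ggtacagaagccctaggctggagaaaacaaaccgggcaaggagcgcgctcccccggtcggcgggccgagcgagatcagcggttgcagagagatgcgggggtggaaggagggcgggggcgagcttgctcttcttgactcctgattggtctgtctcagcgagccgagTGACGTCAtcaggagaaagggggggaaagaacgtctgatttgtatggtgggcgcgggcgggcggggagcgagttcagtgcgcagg
Zbtb11: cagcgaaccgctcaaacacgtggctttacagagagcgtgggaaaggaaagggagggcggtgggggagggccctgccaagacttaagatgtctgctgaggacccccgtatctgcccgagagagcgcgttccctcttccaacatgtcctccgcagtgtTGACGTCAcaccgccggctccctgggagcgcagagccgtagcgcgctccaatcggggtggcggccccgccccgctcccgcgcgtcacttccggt
Heca, a cell cycle regulator related to a fly gene, rose 1.65-fold from 1223 to 2022 normalised reads, Ppm1d, which switches off the DNA damage response, 1.85-fold from 656 to 1214, and Zbtb11 1.79-fold from 2552 to 4572. The other 7 genes with a full element were Tmem198, Stk38l, Pard6a, Ppan, Mcam, Rap1b and Golph3, with folds from 1.47 (Golph3) to 1.64 (Pard6a). The promoters shown are thus those with the highest folds among the 11 genes, and nothing is read from their folds about the motif.

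Of the 4 genes with a CArG box, 3 are shown, again with the match in capitals: Srf at chr17:46556163-46556412 (minus strand), Ing2 at chr8:47675160-47675409 (minus) and Tceal8 at chrX:136172252-136172501 (minus). Srf is shown because it encodes the factor that binds this box and has 2 matches in its own window, a reason that does not cover Ing2 and Tceal8.
Srf: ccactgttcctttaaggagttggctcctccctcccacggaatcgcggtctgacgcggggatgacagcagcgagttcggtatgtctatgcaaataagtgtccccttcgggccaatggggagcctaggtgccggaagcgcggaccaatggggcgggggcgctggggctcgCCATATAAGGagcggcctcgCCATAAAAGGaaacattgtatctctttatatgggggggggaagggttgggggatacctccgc
Ing2: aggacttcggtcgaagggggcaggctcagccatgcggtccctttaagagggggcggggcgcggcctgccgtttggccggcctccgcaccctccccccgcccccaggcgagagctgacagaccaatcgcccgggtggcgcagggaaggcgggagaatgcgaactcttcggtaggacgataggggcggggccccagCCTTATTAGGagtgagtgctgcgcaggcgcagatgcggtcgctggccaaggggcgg
Tceal8: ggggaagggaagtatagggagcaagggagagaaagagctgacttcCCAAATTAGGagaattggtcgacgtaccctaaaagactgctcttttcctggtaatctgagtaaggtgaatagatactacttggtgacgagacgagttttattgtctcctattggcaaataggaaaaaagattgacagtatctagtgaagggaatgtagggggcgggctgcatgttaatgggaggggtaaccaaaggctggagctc
The remaining one was Ppm1b, a protein phosphatase, which rose 1.58-fold. Srf, Ing2 and Tceal8 had folds of 1.94, 1.97 and 1.91, near the upper limit of the set. These are the highest folds of the 4 genes, and nothing is read from them about the motif.

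Translation and ribosome assembly held 13 genes, with a median fold of 1.54. Eprs, the tRNA synthetase for glutamate and proline, rose 1.97-fold in the authors' deposited table, from 4674 to 9220 normalised reads, with the smallest adjusted p of all 160 genes (2.73e-10). Fbl, the methyltransferase of nucleolar guide particles, rose from 1487 to 2973 (adjusted p = 1.93e-07 in the authors' deposited table). Other genes of ribosome assembly were Gltscr2, now named Nop53, at 1.80-fold, Sbds at 1.66-fold and Nolc1 at 1.51-fold. Tpt1, a translation-associated protein with 6 pseudogenes named after it, rose 1.62-fold from 10295 to 16681, and its reads may be shared with them. Etf1, the release factor, rose 1.51-fold. Eif2s2, a subunit of the initiation factor eIF2, rose 1.38-fold, and Eif2ak3, the PERK kinase of the endoplasmic reticulum stress response, 1.54-fold from 1012 to 1561. Of the list of translation factors and tRNA synthetases 3 of 32 genes were higher and 0 lower, all 3 of them modest rises, and of ribosome biogenesis 2 of 26 were higher and 0 lower. None of 25 ribosomal protein genes was called. Over all genes tested 1.47% were called higher and 0.678% higher by less than 2-fold. The lists were chosen with earlier results known, so nothing is read from these counts or from the list counts below.

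Cell cycle, DNA and cell death genes numbered 7, with a median fold of 1.82 in the authors' deposited table. The groups were assigned by hand with the values known, so no order of group medians is drawn from them: text patterns on the gene descriptions put 4 genes in the corresponding group, with a median of 1.61. Mcl1, which protects mitochondria from the death machinery, rose 1.89-fold from 3711 to 7013 normalised reads. Ciapin1, a cytosolic iron-sulfur protein named as an apoptosis inhibitor, rose 1.89-fold to 5517. Cdkn1b, the cyclin-dependent kinase inhibitor p27, rose 1.72-fold from 2577 to 4441, and Pcna, the sliding clamp of replication, 1.56-fold from 2373 to 3707. Pcna has 2 pseudogenes named after it. Ncapg2, a condensin subunit, rose 1.82-fold from 229 to 417.

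The 8 genes of sterol and lipid metabolism had a median fold of 1.76 in the authors' deposited table. Hsd17b7 rose 1.99-fold from 1010 to 2011 normalised reads, Pmvk 1.85-fold to 2400, Mvd 1.67-fold to 1589, Sqle 1.94-fold to 5428 and Sc5d 1.87-fold to 4100, while Mvk had the smallest fold at 1.42 (adjusted p = 0.046 in the authors' deposited table). These 6 enzymes act in the mevalonate and sterol steps of cholesterol synthesis. Hmgcs1 and Insig1, of the same control circuit, were outside the limit at 2.38-fold and 2.55-fold. Elovl5, which lengthens fatty acids, rose 1.60-fold from 2902 to 4637.

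Ubiquitin genes numbered 6 in the authors' deposited table, with a median fold of 1.66. Fbxw7, the substrate receptor of a ligase for cyclin E and MYC, rose 1.81-fold from 6695 to 12143 normalised reads. The deubiquitinases Usp2, Usp37 and Usp53 rose 1.68-fold, 1.64-fold and 1.52-fold, and Ndfip2, an adaptor of NEDD4-family ligases, 1.71-fold from 4818 to 8256. On the ubiquitin list 8 of 46 genes were higher and 0 lower, 4 of them modest rises.

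Chromatin genes numbered 5 in the authors' deposited table, with a median fold of 1.61. H3f3b, which encodes the replication-independent histone H3.3, rose 1.61-fold from 4973 to 8012 normalised reads, and Nap1l5, of the nucleosome assembly protein family, 1.61-fold from 11544 to 18565. Ing2, a reader of methylated histone H3, rose 1.97-fold from 1217 to 2393, Smarca5, a remodelling ATPase, 1.58-fold to 4628, and Sap18, of a deacetylase complex, 1.89-fold to 6287. On the list of chromatin regulators 2 of 51 genes were higher and 1 lower. Nuclear transport was represented by Nup98, a pore protein, at 1.58-fold and Kpna1, an import adaptor, at 1.37-fold, and its list had 3 of 26 higher and 0 lower.

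Among 12 genes of RNA binding and processing the median fold in the authors' deposited table was 1.52. Ptbp1, the splicing repressor, rose 1.59-fold from 1075 to 1712 normalised reads, and Hnrnpa2b1, 1.51-fold from 10472 to 15836. Ythdc1, the nuclear reader of N6-methyladenosine, rose 1.67-fold to 5354, and Mbnl1, a splicing regulator of muscle and brain, 1.52-fold to 5639. Ddx3x, an RNA helicase, had a small fold, 1.40, at a high level, 11456 to 16031. Cnbp, which binds single-stranded nucleic acid, also had a small fold at a high level, 1.41 from 10650 to 15045. Ppig, a cyclophilin found with splicing factors, rose 1.51-fold to 5359, and Sde2, needed for genome stability and splicing, 1.60-fold to 1852. The list of splicing factors had 2 of 47 genes higher and 0 lower.

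The cytoskeleton group held 13 genes with a median fold of 1.58. Tpm4, a tropomyosin of actin filaments, rose 1.88-fold from 1080 to 2028 normalised reads (adjusted p = 3.58e-07 in the authors' deposited table). Nefm and Nefl, the medium and light neurofilament chains of axons, rose 1.77-fold, from 8948 to 15863, and 1.60-fold, from 13925 to 22303. Their exons overlap on opposite strands, so without known use of strand their reads could not be told apart in the overlap. Basp1, a growth cone protein, rose 1.39-fold from 21180 to 29504, Dstn, an actin-depolymerising factor, 1.58-fold to 12854, and Tubb6, a beta tubulin, 1.64-fold from 215 to 354. Ndel1, a partner of dynein, rose 1.57-fold from 3621 to 5670, and Mapre1, which binds growing microtubule ends, 1.43-fold from 4500 to 6422. Pard6a, a cell polarity protein, rose 1.64-fold to 1438, Unc45a, a myosin chaperone, 1.54-fold to 2222, and Tagln2, a transgelin that binds actin, 1.74-fold from 391 to 680. On the cytoskeleton list 5 of 40 genes were higher and 0 lower, all 5 of them modest rises, beside 1.47% higher over all genes tested.

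In the authors' deposited table small GTPases and their regulators (11 genes, median 1.47) included Rassf1, a tumour suppressor with a Ras association domain, at 1.90-fold, Rap1b at 1.58-fold and Rap2a at 1.35-fold. The traffic GTPases Arf2, Arf6 and Arl13b, the last a protein of cilia, rose 1.41-fold, 1.49-fold and 1.53-fold, and Atl2, an atlastin that fuses endoplasmic reticulum tubules, 1.46-fold from 2728 to 3975. Rasa2, a GTPase-activating protein for Ras, rose 1.47-fold from 1174 to 1730. None of the 5 higher genes on the list of small GTPases was a modest rise, and the 5 were Arl4d, Arl5b, Gem, Rheb and Rrad. Membrane traffic (7 genes, median 1.52) included Litaf, an endosomal protein, at 1.75-fold and Picalm, a clathrin adaptor, at 1.40-fold. Ap1s2, a clathrin adaptor subunit, rose 1.52-fold from 1636 to 2493, Golph3, of the Golgi, 1.47-fold to 4162, and Vps37b, of the ESCRT-I complex, 1.74-fold from 763 to 1331. On the membrane traffic list 2 of 38 genes were higher and 0 lower, both of them modest rises. Vmp1, an autophagy protein of the endoplasmic reticulum, rose 1.82-fold from 4309 to 7838, and its exons overlap the gene of the microRNA Mir21a on the same strand. Kinases and phosphatases numbered 4 (median 1.57), among them Camk2n2, an inhibitor of CaM kinase II, at 1.39-fold.

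Ligands, receptors and adhesion molecules numbered 16 in the authors' deposited table, with a median fold of 1.56 and a low median sham level of 610 normalised reads. Tgfb3, a ligand of the TGF-beta family, rose 1.53-fold. Hbegf, an EGF receptor ligand, rose 1.66-fold and Adrb1, the beta-1 adrenoceptor, 1.93-fold, with the widest implied error of all (0.282 on the log2 scale). Fgfr2, an FGF receptor, rose 1.54-fold from 1742 to 2687, Efnb2, an ephrin of vessels and axons, 1.44-fold, and Mcam, an adhesion molecule of vessel walls, 1.58-fold. Cxadr, a tight junction adhesion molecule and virus receptor, rose 1.75-fold from 1173 to 2053, Sema4c, a semaphorin, 1.58-fold to 883, and Entpd1, which breaks down extracellular ATP, 1.51-fold to 931. S1pr5, a sphingosine 1-phosphate receptor of oligodendrocytes, rose 1.45-fold to 875. Tnfrsf1b, a TNF receptor, rose 1.67-fold and Cd53, a leukocyte tetraspanin, 1.69-fold. Of 20 microglia markers 2 were higher and 0 lower, Fcrls at 1.47-fold and Ly86 at 1.53-fold, both of which were left out by name, and their part in these results was not tested.

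The 5 genes placed by hand in a myelin-associated group, which the text patterns do not have, had a median fold of 1.41 in the authors' deposited table. Tspan2 rose 1.41-fold to 7095 normalised reads, Tmem88b 1.41-fold to 3262, Evi2a 1.52-fold to 847 and Pmp22, a myelin protein mainly of peripheral nerve, 1.66-fold to 1262. On the oligodendrocyte list 5 of 18 genes were higher and 0 lower, of which Cldn11, Cnp and Ermn were left out by name, and on the precursor list 1 of 11 was lower. In bulk tissue more cells of a type and more RNA per cell cannot be told apart. Of the other enzymes and channels (11 genes, median 1.55), Cox7c, a respiratory chain subunit, rose 1.41-fold and Cstb, a cathepsin inhibitor, 1.61-fold from 934 to 1507. Clic4 and Clcn3, a chloride channel and an exchanger, rose 1.46-fold from 3925 to 5722 and 1.38-fold from 8723 to 12069. Txnl1, a thioredoxin-like protein, rose 1.55-fold to 5238, Selk, now Selenok, a selenoprotein of the endoplasmic reticulum with 6 pseudogenes named after it, 1.43-fold to 6295, and Pex5, the import receptor of peroxisomes, 1.52-fold to 3627. Ncf1, a subunit of the phagocyte NADPH oxidase, rose 1.67-fold from 295 to 493. The remaining 18 genes had a median of 1.53 and no shared function in their descriptions.

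**Figure D3:**
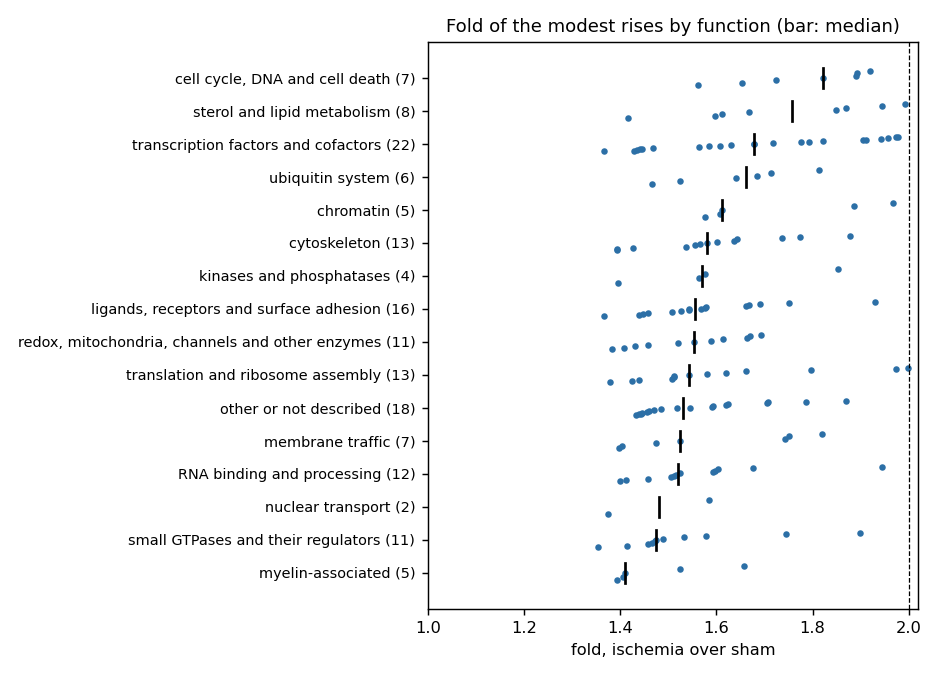
The fold of ischemia over sham (linear axis from 1) is plotted for each of the 160 genes by function group, with the median of each group marked. The groups were assigned by hand with the values known. Their medians run from 1.41 to 1.82.

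Precision was read from the standard error that each p-value implies for the log2 fold, an approximation because the authors' test is not named. It had a median of 0.158 (0.127 to 0.282), against 0.37 for the rises of 2-fold or more. Among the 104 genes with at least 1000 normalised reads in sham, 58 had an implied error under 0.15 and 21 one of 0.18 or more, although the median sham level was 2987 in the former and 3333 in the latter. The 21 had a median fold of 1.79, against 1.48, and included Sc5d, Mcl1, Fbxw7, Vmp1, Sqle, Nefl, Nefm and Tpt1. The implied error is computed from the fold and the p-value, and every gene had passed the same limit of adjusted p. A gene with a wide error could be listed only with a larger fold, so nothing is read from this difference in fold. An adjusted p of at most 0.001 was given to 38 of the 160 genes, and one above 0.01 to 83. No gene under 1.5-fold was among the 38, which had folds of 1.56 to 2.00.

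**Figure D4:**
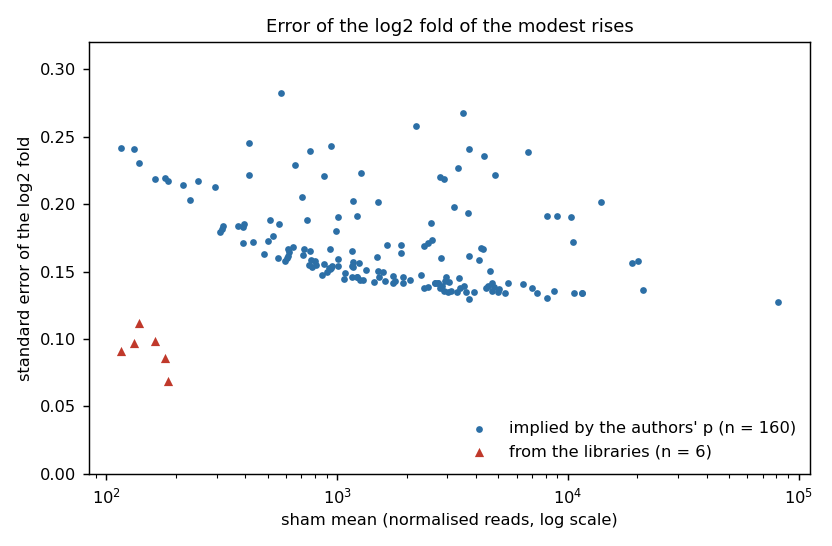
The standard error of the log2 fold implied by the authors' p-value is plotted against the sham mean in normalised reads (log axis) for each modest rise, and triangles give the standard error from the libraries for 6 genes. Most points follow a lower edge that falls with the level, and the 21 genes at 0.18 or more with at least 1000 reads lie above it.

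Values per library could be separated from the means for scarce genes, as whole reads divided by size factors, and 6 modest rises gave them in both groups. The libraries are lettered A, B and C by size factor and have no link to the replicate labels. Nfkbid had 232, 246 and 210 normalised reads in the ischemia libraries and 114, 108 and 126 in the sham libraries. Nfkb2 had 243, 241 and 267 against 136, 142 and 117, so both NF-kappaB genes were higher in every ischemia library. C330027C09Rik, now named Cip2a, an inhibitor of protein phosphatase 2A, had 276, 237 and 263 against 128, 156 and 130. Tnfrsf1b had 286, 248 and 277 against 147, 163 and 176. Klf11, a Krüppel-like repressor, had 295, 323 and 283 against 172, 195 and 169. Gimap6, a GTPase of immune cells, had 298, 321 and 349 against 182, 182 and 190. In all 6 genes the lowest ischemia library lay above the highest sham library. The 6 had already been called from these same libraries, so this is a description and no separate support. The share of other separated genes without overlap is not given here. The standard error of the log2 fold computed from these libraries was 0.316 to 0.484 times the one implied by the authors' p-value, with a median of 0.397. Sham values alone could be separated for another 13 genes.

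**Figure D5:**
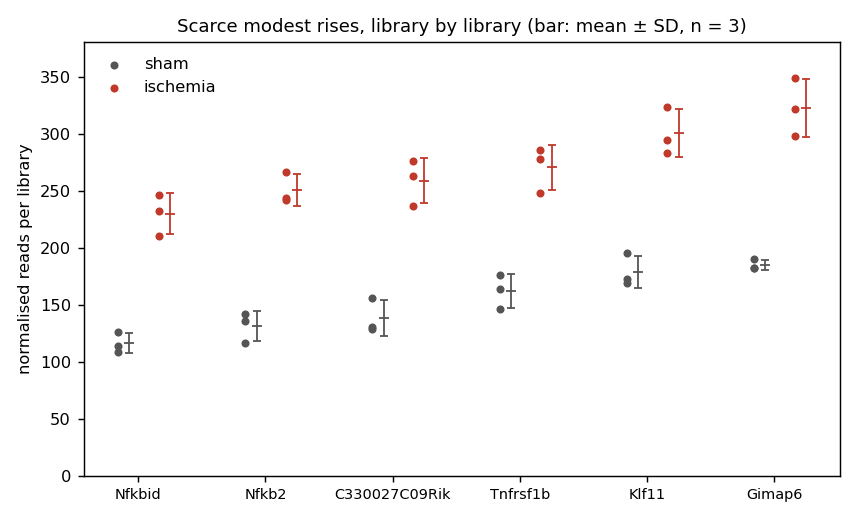
Normalised reads per library are plotted for the 6 genes that could be separated in both groups, with 3 ischemia and 3 sham libraries each and bars for the mean and SD (n = 3). The 2 groups do not overlap for any of the 6, all of which were chosen from called genes. Nfkbid ranges from 210 to 246 in ischemia and from 108 to 126 in sham.

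Transcript features come from GENCODE M21, matched by symbol for all 160 genes, and are given without a test. The median coding length of the modest rises was 1176 bases, against 1140 for the larger rises, 1956 for the falls and 1173 over all coding genes, and their median transcript GC content was 47.5%, against 49.2%, 52.9% and 49.4%. Exons of 44 of the 160 genes (27.5%) overlap exons of a gene on the opposite strand, against 27.3% of the larger rises and 30.8% of the falls. Among the 44 are Rab6a, Stat3, Usp2, Usp37, Ndfip2, Ing2, Mafk, Tpm4, Ptbp1, Nfkb2, Rassf1, Litaf, Ciapin1, Sap18, Irf2bp2, Med7, Zbtb11, Golph3, Eif2ak3, Mcam, Tgfb3 and Tspan2, and their values are uncertain where reads could be split. In these named genes the longest such overlap ran from 17 bases in Mcam to 1627 in Rassf1. In gene order, 4 pairs of neighbours were both modest rises: Cox7c and Edil3, Nefl and Nefm, Atl2 and Hnrnpll, and Rwdd4a and Ing2. Another 3 lay beside a larger rise: Etf1 beside Egr1 (6.51-fold), Cdkn1b beside Apold1 (5.93-fold) and Ndfip2 beside Spry2 (3.76-fold). Rgag4, now Rtl5, lay beside a fall, Nhsl2. How many such neighbours would arise by chance was not computed.

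Over the 17 lists of cellular processes 42 of 577 genes were higher and 2 lower, and 25 of the 42 were modest rises. Over all genes tested, 1.47% were called higher and 0.678% higher by less than 2-fold, and nothing is read from the difference because the lists were chosen with earlier results known. The 5 lists of processes without a modest rise were those of CREB and ATF factors (2 of 19 higher), cAMP and protein kinase A signalling (0 of 27 called), PI3K, AKT and mTOR signalling (1 of 30 higher), small GTPases (5 of 35 higher) and mRNA decay (1 of 33 higher). Over the 12 cell type lists 11 genes were higher and 5 lower, and 2 of the 11, Tmem88b among them, are described here. Another 6 of the 11 (Cldn11, Cnp, Ermn, Fcrls, Ly86 and Rora) also rose by less than 2-fold and were left out by name, so this count is set by the choice of genes. No gene of the lists for astrocytes, pericytes, choroid plexus or interneurons was called, while 2 of 16 leukocyte and red cell markers (S100a8 and S100a9) and 2 of 16 markers of neocortex, striatum and thalamus were higher and 1 of 17 endothelial markers, Sox18, was lower. Their part in the modest rises was not tested.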

How the data were processed

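RNA of 6 hippocampus samples, 3 after occlusion and 3 after sham operation, was sequenced. The authors deposited 1 table of 637 called genes, in which the read signal of a gene is its mean normalised read count in a group, per the file headers. Deposited log2 fold changes match the log2 of the ratio of means within 5e-05, so no pseudocount was added. Each p-value, plain or adjusted, was computed by the authors. Bowtie 0.12.2 and the mouse build mm8 are named, with no role, in the submitters' processing notes, while 612 gene identifiers, those of all 160 genes described among them, carry the prefix of the BALB/cJ strain annotation. How reads were counted, whether by strand, how they were normalised and which test was run is information not given in the sources used. A spreadsheet had made a date of 1 symbol. The number of genes tested, 28319, was inferred as the one whose Benjamini-Hochberg adjustment returns the deposited adjusted p-values, in 636 of 637 rows.

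No column gives values per sample (0 found), so the planned tests per sample were not run and no test was added. Depth per library is unknown. Whole reads per library were separated from means of up to 450 by lattice reduction of the 12 lowest means of each group, with steps of at least 0.2, and the method was tested on simulated data. The size factors were 1.20, 0.878 and 0.837 in ischemia and 1.20, 1.11 and 0.874 in sham, and 135 of 172 ischemia means and 189 of 195 sham means had 1 solution. Implied errors are the log2 fold divided by the normal deviate of the authors' two-sided p-value.

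The 160 genes, the 31 gene lists (791 genes) and the named genes were chosen with earlier results of these data known. Functions were assigned by hand from the descriptions in place of the planned text patterns. The naming rule took, per function group, up to 8 genes with the smallest p-values, the 8 highest and 8 lowest sham means, the 6 highest and 6 lowest ratios, every gene on a list and the 5 just outside the limit. Med7, Taf13, Zbtb11, Hnrnpll, Ppan, Rwdd4a, Cd53, Hbegf, S1pr5 and Adrb1 fall outside it and were named after their values were seen. Some genes that the rule names are left out of the text. Coding length (GENCODE M21, GRCm38) replaced the planned protein length. Alternatives were a ratio under 1.5, a mean of at least 50 normalised reads, an adjusted p of at most 0.01, both kinds of left-out genes counted, and each library left out. Python 3.11.15, numpy 2.4.6, pandas 2.3.3, scipy 1.17.1, sympy 1.14.0 and matplotlib 3.10.9 were used.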

Additional observations from a re-analysis of the deposited data

How the results depend on the processing

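The number of modest rises was 160 and fell to 48 with a ratio under 1.5 and to 77 with an adjusted p of at most 0.01, both by construction, since fewer genes pass. With that adjusted p the median fold was 1.64 in place of 1.58 and the median sham mean 1447 in place of 1551 normalised reads. A mean of at least 50 normalised reads left 160, the genes left out by name brought the number to 177 and those without a symbol to 175. Over the 6 genes with values per library, the median log2 fold was 0.85 and lay between 0.82 and 0.88 with each library left out in turn. None of 36 values of single genes moved by more than the spread between libraries. Leaving out 1 of 3 libraries moves a group mean by less than their SD by construction, so nothing is read from this. No paired analysis was possible because the deposited table holds group means only and the separated libraries have no link to the replicate labels. The fit with the replicate number as a block and the pseudocount of 0.1 were not run for the same reason. Limits: folds and calls rest on 3 samples a group and on a test that is not named, directions rest on the reading of the column initials, and the table lists called genes only.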
